A study of Mus musculus with 6 samples.

Results

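Bmi1 and Kdm6b are genes for regulators of Polycomb marks, and 4 windows of changed DNA methylation lay nearest to their start sites, 3 at Bmi1 and 1 at Kdm6b, out of 2135 different windows near 1223 gene symbols in 3 deposited comparisons. These 4 are all windows for which the tables name either gene as the nearest one, each counted once by chromosome and start. They were thus chosen by the authors' listed methylation differences, which are given as a description with no test. The windows came from reduced representation bisulfite sequencing (RRBS), which reads cytosine methylation in DNA fragments cut at CCGG by the enzyme MspI and is therefore densest in CpG-rich sequence. DNA came from GFP-positive cells sorted out of the bone marrow of irradiated recipient mice 4 weeks after transplantation or treatment, in 6 libraries that form 3 groups of 2. All groups were C57BL6 bone marrow cells immortalised with HoxA9, a homeobox factor that keeps myeloid progenitors self-renewing. The IDH1wt cells carried pSF91-IDH1wt-IRES-EGFP, the IDH1mut cells pSF91-IDH1mut-IRES-GFP, with the change R132C in the name of the table, and the R-2HG cells an empty vector, their hosts receiving 1 mg of R-2HG daily over 4 weeks. The R-2HG group thus differs from both others in the transgene as well as in the treatment, and the 6 libraries hold no empty-vector group without R-2HG. Whether a group's libraries stem from different mice, and how many founder clones an immortalised culture held, is not in the labels, so the authors' p-values cover only the spread between these libraries at most, which may be technical.

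Polycomb repressive complex 2 (PRC2) methylates lysine 27 of histone H3, and Polycomb repressive complex 1 (PRC1) binds that mark and ubiquitinates histone H2A, which keeps developmental genes silent. BMI1 is a PRC1 subunit that stimulates the ubiquitin ligase RNF2, and blood stem cells need it to self-renew, in part because it represses the cell cycle inhibitor locus Cdkn2a. KDM6B (JMJD3) works in the other direction: it removes methyl groups from lysine 27 of histone H3, and like the TET enzymes it uses 2-oxoglutarate, the metabolite with which R-2HG, the product of mutant IDH1, competes. The tables give DNA methylation near these genes, and they hold neither histone marks nor transcript levels.

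Each value is the authors' difference in methylation between 2 groups in percentage points, with no value per library beside it, so no SD, interval or test between libraries could be had, and read depth is unknown. The tables list windows of 500 bp with a difference of at least 25 points and a q under 0.01, and a window that is not listed may have changed less or may not have been covered. A p-value of 0 stood in the authors' deposited table at 70.9% of the windows listed between IDH1mut and IDH1wt, at 68.7% of those between R-2HG and IDH1wt and at 81.9% of those between R-2HG and IDH1mut. Differences are read as IDH1mut or R-2HG minus IDH1wt, and as R-2HG minus IDH1mut where those 2 are compared. For R-2HG against IDH1wt the authors deposited the opposite sign, so every such value below is the deposited one with its sign turned. The data fix these directions only up to a reversal of all 3 comparisons at once, in which every "higher" below becomes "lower".

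The start regions of Bmi1 and of Cbx8, another PRC1 gene whose windows lay at nearly the same distance downstream, are shown because no listed window of either gene lay there, and the MspI sites say where RRBS can read. Both are RefSeq promoters in the build GRCm38.p6, from 250 bases before to 50 after the start, printed 5′ to 3′ on the strand of the gene with each MspI site (CCGG, the same on both strands) in capitals. They lie at chr2:18676768-18677067 on the plus strand and chr11:119040864-119041163 on the minus strand, in a different build from the mm9 coordinates of the windows.
Bmi1: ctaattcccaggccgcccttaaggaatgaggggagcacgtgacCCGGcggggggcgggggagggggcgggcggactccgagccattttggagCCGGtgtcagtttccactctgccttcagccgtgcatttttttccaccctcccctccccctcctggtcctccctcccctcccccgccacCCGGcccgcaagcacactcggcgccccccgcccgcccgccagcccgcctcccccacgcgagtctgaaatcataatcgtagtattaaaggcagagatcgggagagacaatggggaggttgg
Cbx8: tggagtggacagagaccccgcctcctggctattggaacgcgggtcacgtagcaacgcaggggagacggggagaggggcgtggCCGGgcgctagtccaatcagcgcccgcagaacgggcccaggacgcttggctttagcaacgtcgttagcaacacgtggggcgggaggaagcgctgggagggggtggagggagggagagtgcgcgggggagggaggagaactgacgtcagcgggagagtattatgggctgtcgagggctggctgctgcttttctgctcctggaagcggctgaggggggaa
The Bmi1 start region held 3 MspI sites, at bases 44, 93 and 181 of the printed run, and 23 CpGs. The sites bound fragments of 49 and 88 bp, inside the range of 40 to 220 bp that was cut from the gel per the labels' protocols. The Cbx8 start region held 1 site and 24 CpGs, so it has no whole fragment between sites within the printed bases. Of 32851 such promoters of 300 bases, 52.8% held at least 1 site and 26.7% a fragment in that range. The Bmi1 start region thus holds fragments that the assay can read in this build, while every listed window lay further downstream. The promoter of Kdm6b and the sequence of the windows themselves were not used here.

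Downstream of the Bmi1 start site, DNA methylation was much higher in IDH1mut cells than in either IDH1wt or R-2HG cells. The first window began 3608 bp downstream of the start of the transcript NM_007552 (mm9, chr2:18602251-18602750) and was 53.7 points higher in IDH1mut than in IDH1wt in the authors' deposited table. The middle window, at 3858 bp (chr2:18602501-18603000), was 45.6 points higher in the authors' deposited table. The last one, at 4108 bp (chr2:18602751-18603250), was 41.8 points higher in the authors' deposited table. The difference thus became smaller with distance from the start. The windows overlap by 250 bp, so the middle one shares its sequence with the others, while the first and the last share none and were both past 40 points.

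R-2HG cells were lower than IDH1mut cells in the same 3 windows. The first window differed by -44.8 points, R-2HG minus IDH1mut, in the authors' deposited table. The same difference was -35.7 points in the middle window and -31.4 in the last, in the authors' deposited table. The order along the DNA was therefore the same as against IDH1wt, with the window nearest the start site furthest apart. Both comparisons use the same 2 IDH1mut libraries, so they are not independent of each other.

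None of the 3 windows was listed for R-2HG against IDH1wt. Subtraction gave R-2HG minus IDH1wt as 8.96, 9.97 and 10.4 points from the first window to the last. These remainders span 1.42 points, against 11.9 and 13.4 points for the listed differences, and all of them were positive and below the 25 points of the tables. They carry no p-value, and it is unknown whether so small a difference exceeds the spread between libraries. At Bmi1 the IDH1mut cells stood apart, and the R-2HG and IDH1wt cells lay about 10 points from each other by subtraction.

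**Figure D1:**
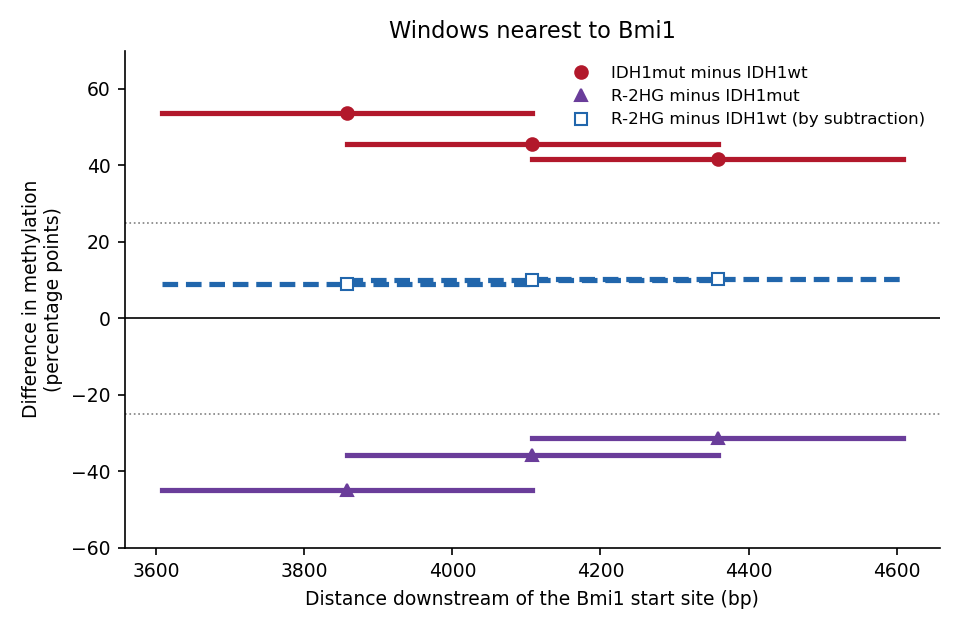
Difference in methylation (percentage points) in the 3 windows nearest to Bmi1 against distance from the start site (bp); each bar spans a window, filled symbols are the authors' listed differences, open squares were obtained by subtraction, and dotted lines mark 25 points. IDH1mut was 41.8 to 53.7 points above IDH1wt, R-2HG was -44.8 to -31.4 points from IDH1mut, and the remainder between R-2HG and IDH1wt was 8.96 to 10.4 points.

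Among all windows of the tables, those of Bmi1 were large against IDH1wt and spread more widely against R-2HG. Of the 1493 windows listed for IDH1mut against IDH1wt, 97.2%, 93.2% and 88.7% had a smaller absolute difference than the first, middle and last Bmi1 window, which ranked 42, 102 and 169. Gains made up 69.3% of the windows listed there, so the direction seen at Bmi1 was the common one. For R-2HG against IDH1mut the same windows ranked 27, 113 and 230 of 603, where gains made up 35.5%. Having 3 listed windows was less common: 88 of 881 gene symbols (9.99%) had at least 3 for IDH1mut against IDH1wt, and 31 of 369 (8.40%) for R-2HG against IDH1mut. The windows just before and just after the 3, starting 250 bp away on either side, were in no table, although each shares 250 bp with a listed one.

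Near Kdm6b the listed difference was small and stood in the comparison of R-2HG with IDH1wt alone. A single window lay upstream, at -7825 bp from the start of the transcript NM_001017426 on the minus strand (mm9, chr11:69235001-69235500). Its methylation was 25.3 points higher in R-2HG than in IDH1wt, with p and q both 0, in the authors' deposited table. It ranked 721 of the 750 windows of that comparison, and 3.87% of them had a smaller absolute difference, so it stood just inside the 25 points at which the table begins. Gains made up 68.0% of those windows. The Kdm6b window was not listed for IDH1mut against IDH1wt or for R-2HG against IDH1mut, so the other differences cannot be had by subtraction and the level of IDH1mut there is not known. The overlapping windows on either side were in no table.

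**Figure D2:**
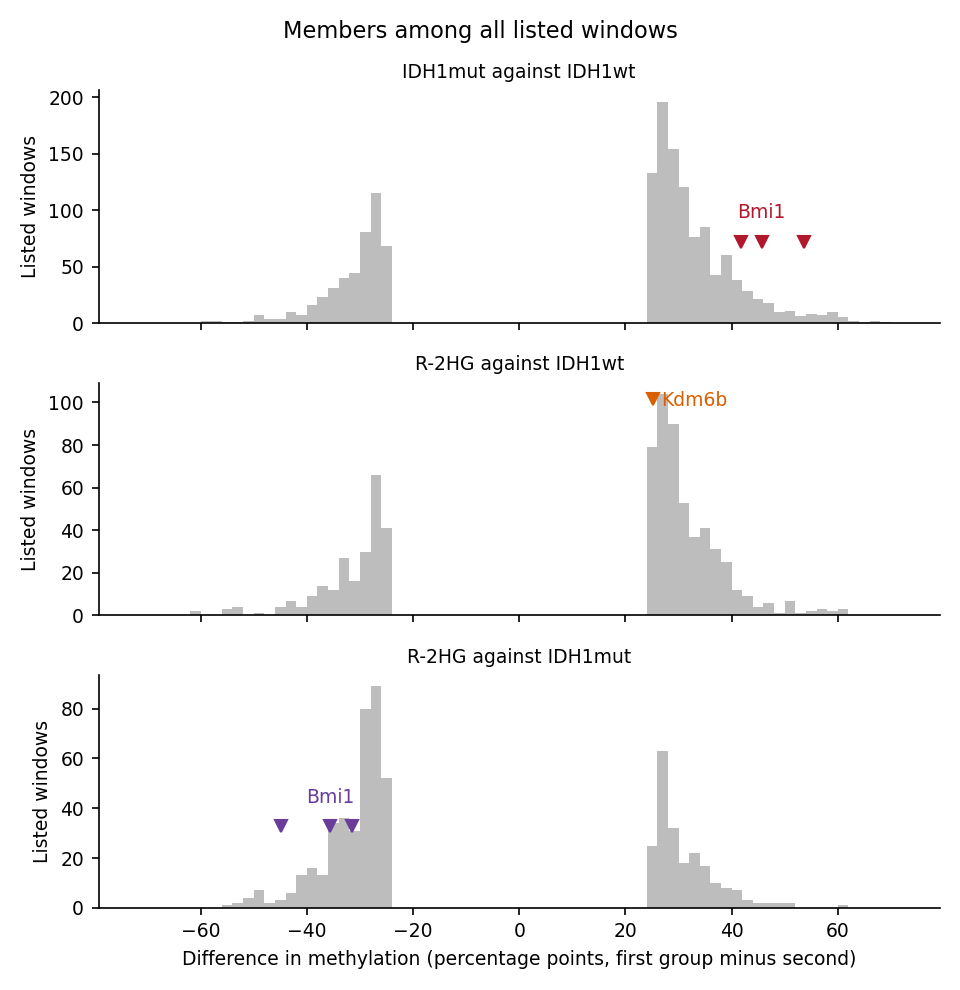
Number of listed windows by difference in methylation (percentage points, 2-point bins) in the 3 deposited comparisons; triangles mark the windows of Bmi1 and Kdm6b. The Bmi1 windows lie in the outer part of the gains for IDH1mut against IDH1wt (41.8 to 53.7 points), and the Kdm6b window lies at the inner edge for R-2HG against IDH1wt (25.3 points).

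Neither gene had a listed window in its promoter, taken as -2000 to 500 bp around the start site. In the RefSeq annotation of GRCm38.p6, the protein-coding gene next to Bmi1 on its upstream side is Commd3, a COMM-domain gene, and the one next to Kdm6b on the upstream side is Dnah2, which encodes a dynein heavy chain of cilia. Within 500 kb of the Bmi1 windows, 1 other window was listed. It lay 70750 bp before the first Bmi1 window, with Commd3 as its nearest gene at -62589 bp (mm9, chr2:18531001-18531500), and was 26.3 points higher in R-2HG than in IDH1wt in the authors' deposited table. So on this stretch of chromosome 2 R-2HG had a listed gain upstream, at a window in neither other table, and IDH1mut its gains inside the 3 Bmi1 windows.

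Around Kdm6b, 6 other windows near 4 genes were listed within 500 kb, all of them for IDH1mut against IDH1wt and none for R-2HG against IDH1wt. The largest was at Chrnb1, a muscle acetylcholine receptor subunit gene, where 2 overlapping windows were 59.6 points higher in IDH1mut in the authors' deposited table. R-2HG minus IDH1mut was -35.2 points in both windows in the authors' deposited table, and subtraction left R-2HG 24.4 points above IDH1wt. Those 2 windows carried identical values in every comparison that listed them. Nlgn2, a neuroligin gene, was 36.1 and 29.4 points higher in IDH1mut in windows at 602 and 352 bp downstream of its start in the authors' deposited table. Arhgef15, a guanine nucleotide exchange factor gene, was 27.5 points higher and Gucy2e, a retinal guanylate cyclase gene, differed by -25.1 points in the authors' deposited table. The Kdm6b window was the only one of these 7 listed for R-2HG against IDH1wt. The Chrnb1 windows, at 24.4 points by subtraction, fell just short of the 25 points of the tables. At the remaining windows that difference is not known.

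**Figure D3:**
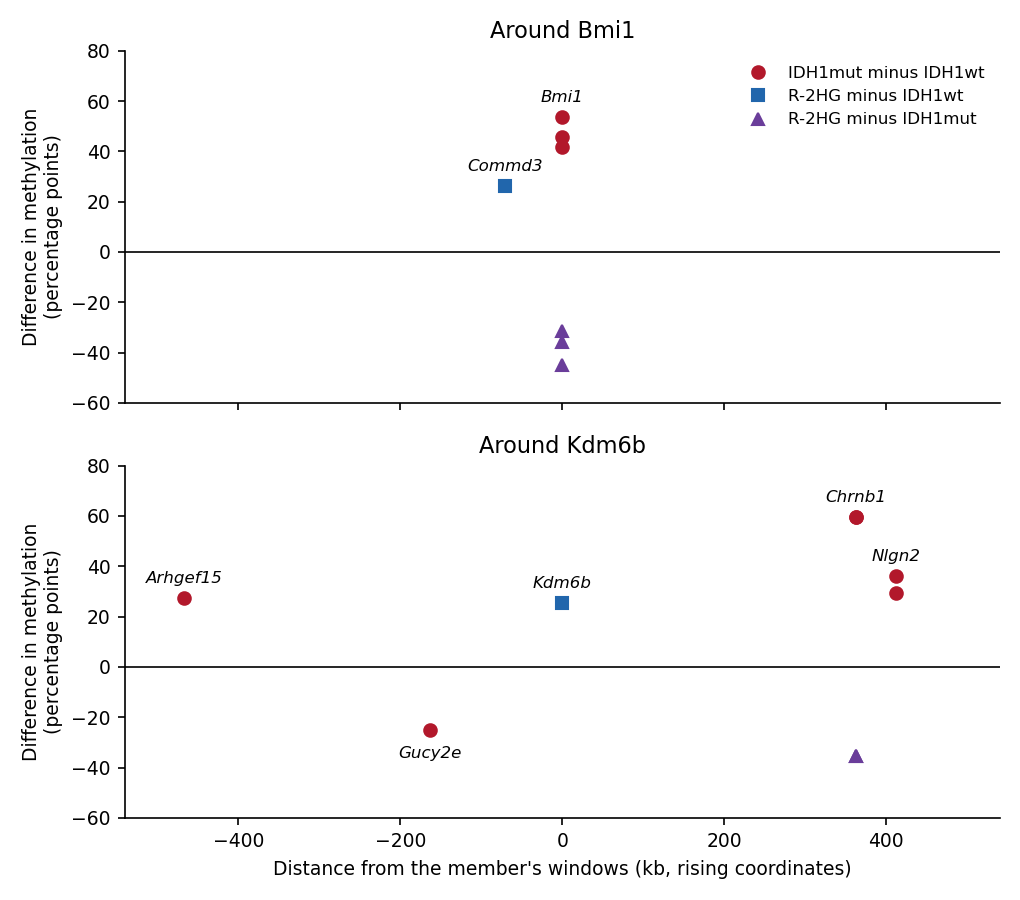
Difference in methylation (percentage points) of every listed window within 500 kb of the windows of Bmi1 (top) and Kdm6b (bottom) against distance from them (kb, positive towards higher coordinates), labelled by the nearest gene. Near Bmi1 the only other window is the R-2HG gain of 26.3 points nearest to Commd3; near Kdm6b the other windows belong to comparisons with IDH1mut, up to 59.6 points at Chrnb1.

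The Bmi1 pattern, listed in both comparisons with IDH1mut and not in the third, was shared by 248 windows near 154 gene symbols. Of all windows listed for IDH1mut against IDH1wt, 16.8% were also listed for R-2HG against IDH1mut. In 163 of the 248 (65.7%) IDH1mut was the higher group, as at Bmi1. By subtraction R-2HG minus IDH1wt had a median of 1.29 points over the 248 windows, with quartiles of -3.02 and 6.76, so each Bmi1 remainder lay above the upper quartile. These quartiles pool windows of every size, with a gain and with a loss in IDH1mut, and the remainders ran from -20.3 to 24.7 points. At windows with gains larger than those at Bmi1, remainders lay both above and below its own, for instance 24.7 points at Mab21l2 and 3.73 at Bach1. The 5 genes whose medians of the 2 differences lay closest to those of Bmi1 (45.6 and -35.7 points) were Col5a3, Gata3, Gm833, Atcayos and Aldh3a1, at 1.59, 2.12, 3.31, 3.43 and 3.75 points in the plane of the 2 differences. By subtraction their medians for R-2HG minus IDH1wt ran from 6.71 points at Gata3 to 11.7 at Col5a3, as their closeness to Bmi1 implies. Col5a3 encodes a collagen chain, Gata3 a lymphoid transcription factor and Aldh3a1 an aldehyde dehydrogenase. Col5a3 had a median of 45.8 points against IDH1wt and -34.1 points for R-2HG minus IDH1mut over its 2 windows, computed from the authors' deposited tables. Aldh3a1 had 42.5 and -33.6 points over 2 windows, the nearer at 3259 bp downstream of its start, computed from the authors' deposited tables. Gm833 was placed by 1 window, at 118604 bp. Its listed windows at 127354 and 127604 bp went the other way, at -36.0 and -35.8 points for IDH1mut minus IDH1wt in the authors' deposited table. Likeness was measured over 2 differences that share the IDH1mut libraries.

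**Figure D4:**
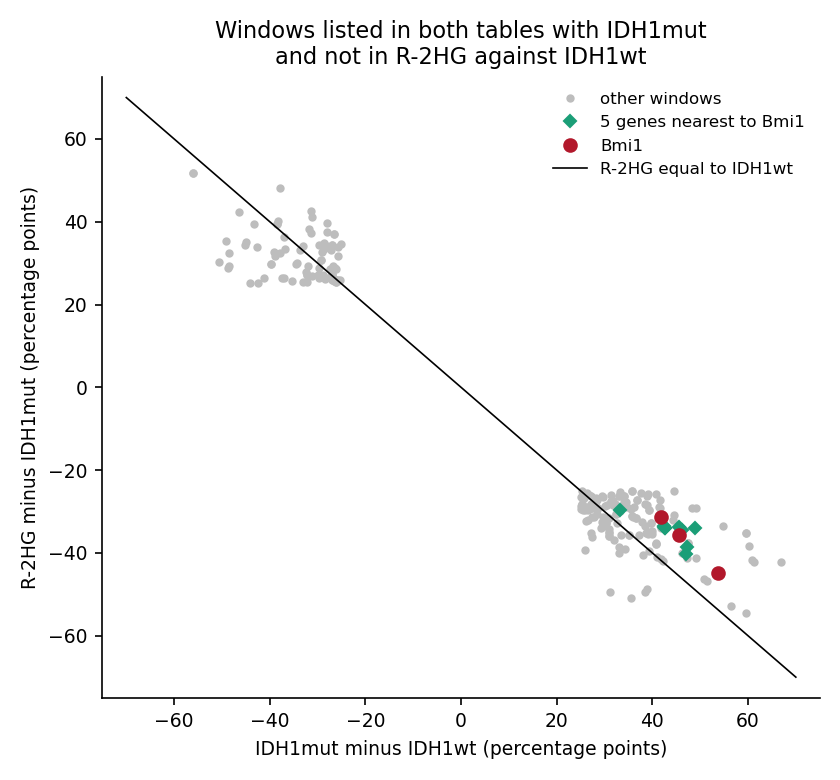
R-2HG minus IDH1mut against IDH1mut minus IDH1wt (both in percentage points) for the 248 windows listed in both tables and not in the third; red points are the Bmi1 windows, green diamonds the windows of the 5 genes nearest to Bmi1 by medians, and on the line R-2HG equals IDH1wt. The Bmi1 windows lie just above the line, by 8.96 to 10.4 points; the empty bands along both axes come from the 25-point threshold of the tables.

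In the wider Polycomb pathway, few genes had listed windows. For IDH1mut against IDH1wt they were 4 of 23 PRC1 genes and 0 of 12 PRC2 genes, a difference that was not tested. The 4 include Bmi1, a member by choice, and 3.38% of all protein-coding genes were listed in that comparison. Only Bmi1 and Cbx8 had a window within 10 kb of the start site there. Of 66 genes in 7 lists, 7 were the nearest gene of a listed window in some comparison: Bmi1, Cbx8, Rnf2, Rybp and Bcor of PRC1, Asxl3 of the H2A deubiquitinase complex and Kdm6b of the H3K27 demethylases. In the comparisons with IDH1wt every listed window of the 7 was a gain, beside 69.3% of all windows listed for IDH1mut and 68.0% of those listed for R-2HG. Most of these windows are overlapping pairs, so they are fewer separate places than windows. The 7 include Bmi1 and Kdm6b themselves, and the lists were chosen with earlier results of these data known. Further chromatin genes outside the lists, named in the closing observations, went both ways against IDH1wt. Losses stood at L3mbtl4, Usp7 and Smarcb1, and gains at L3mbtl1, Brd7 and Nsd1. For IDH1mut against IDH1wt 5 of 66 were listed, and 4 of 64 (6.25%) without Bmi1 and Kdm6b, beside 3.38% of the 21900 protein-coding genes of RefSeq. For R-2HG against IDH1wt 4 of 66 were listed, and 3 of 64 (4.69%) without the pair, beside 1.75% of all. For R-2HG against IDH1mut it was 2 of 66, and 1 of 64 (1.56%) without the pair, beside 1.46% of all. RefSeq genes that RRBS did not cover count as not listed in these shares, and with so few genes nothing is called particular to the pathway. At these shares of all genes, fewer than 1 gene of a list of 12 would be listed. None of the 12 PRC2 genes, of the 15 other JmjC histone demethylase genes, of the 7 H3K4 methyltransferase genes or of Cdkn2a and Cdkn2b was listed in any table.

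Among the PRC1 genes, Cbx8 came nearest to Bmi1 in place and size for IDH1mut but differed from it for R-2HG. CBX8 is a chromodomain subunit that reads methylated lysine 27. Its 2 windows, 3228 and 3478 bp downstream of its start (mm9, chr11:118898251-118899000), were 55.8 and 55.6 points higher in IDH1mut than in IDH1wt in the authors' deposited table. In R-2HG the same windows were 36.6 and 36.5 points higher than in IDH1wt in the authors' deposited table. Subtraction gave R-2HG minus IDH1mut as -19.2 and -19.1 points, so both groups stood above IDH1wt at Cbx8, whereas at Bmi1 only IDH1mut did so past 25 points. Whether the 2 genes differ in this respect was not tested.

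The other PRC1 genes had windows further away. Rnf2 encodes the ubiquitin ligase that BMI1 stimulates, and its window at -17799 bp was 25.2 points higher in IDH1mut, with q = 0.00391, in the authors' deposited table. Bcor encodes a corepressor of a PRC1 variant. Its window, 30973 bp downstream of the start site of the noncoding transcript NR_045434 and listed under the older symbol 2900008C10Rik, was 30.3 points higher in IDH1mut, with q = 4.6e-07, in the authors' deposited table. Both windows were listed in that comparison alone, with a q above the 0 given at Bmi1.

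Rybp, the gene of a PRC1 subunit that competes with CBX proteins, moved in R-2HG. Its 2 overlapping windows, at 161603 and 161853 bp, were 33.8 and 32.4 points higher in R-2HG than in IDH1wt in the authors' deposited table. Against IDH1mut R-2HG was 36.2 and 33.4 points higher in the authors' deposited table. Subtraction left IDH1mut minus IDH1wt at -2.38 and -0.95 points, the reverse arrangement to Bmi1, with R-2HG as the group apart. Asxl3, a scaffold gene of the H2A deubiquitinase that removes the mark PRC1 writes, was higher in both groups. Its 2 windows at 67163 and 67413 bp were each 41.5 points higher in IDH1mut and 36.3 points higher in R-2HG than in IDH1wt in the authors' deposited table, which left -5.17 points for R-2HG minus IDH1mut. At such distances from the start site the gene symbol is a label of place only.

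**Figure D5:**
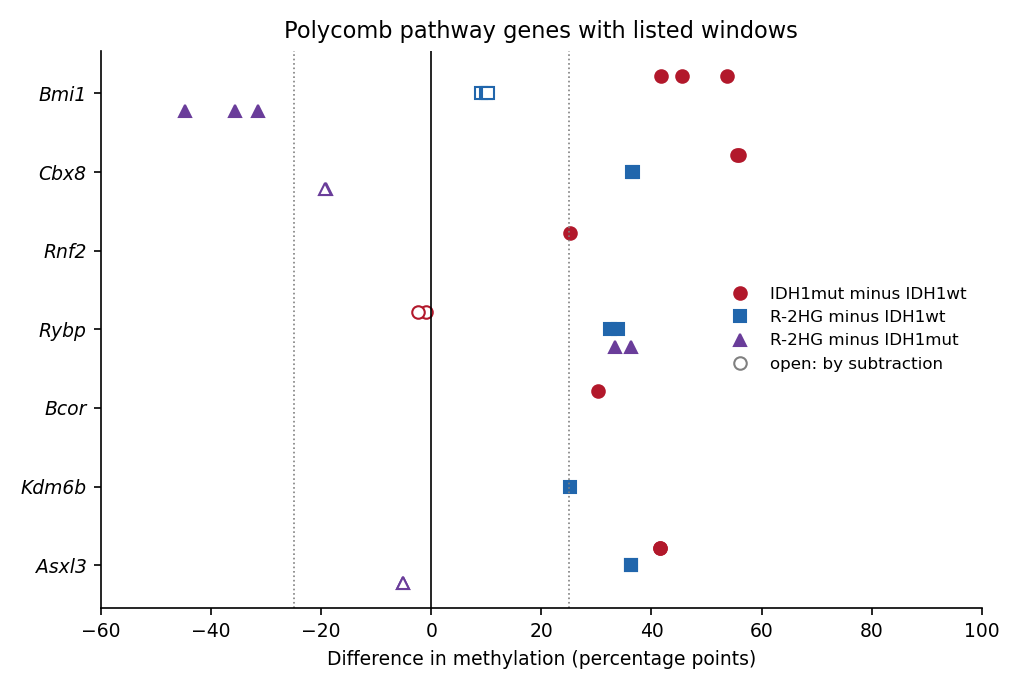
Difference in methylation (percentage points) in each listed window of the 7 Polycomb pathway genes, by comparison; filled symbols are the authors' listed differences, open symbols were obtained by subtraction, and dotted lines mark 25 points. IDH1mut is the group apart at Bmi1, R-2HG at Rybp, and both lie above IDH1wt at Cbx8 and Asxl3.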

How the data were processed

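The files used were 3 tables of group comparisons from 6 RRBS libraries. The submitters' processing notes name Trim Galore, BSMAP, methylKit 0.9.1 and, as genome build, mm9. How these were set, which coverage was required and which test was used is not given in the sources used here, so it is unknown whether the authors' p-values include the spread between libraries. Per the file headers, a row holds a window with its methylation difference, its q-value and p-value, and the distance to the nearest transcript start. The difference was deposited as a score with a sign, in percentage points.

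Repeated rows (64, 4 and 1) were counted once. Of the 4 sign orders of the tables, 1 left a residual of 0 at the 3 windows present in all tables and kept all 705 windows present in exactly 2 tables under 25 points. In that order the table of IDH1wt with R-2HG is reversed, and its signs were turned. The third difference was obtained by subtraction. Simulated group means checked only that the arithmetic was coded correctly, since the relation holds for any 3 means. In the data it could be checked only at the 3 windows present in all tables. Nothing was tested between groups, since no value per library was at hand. All 881, 452 and 369 gene symbols were matched to RefSeq (GRCm38.p6) by transcript or symbol, and a list gene counted as listed under any of its transcripts. Python 3.11.15 and pandas 2.3.3 were used.

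Bmi1 and Kdm6b, the 7 gene lists and the alternatives were chosen with earlier results of these data known. The genes named were these 2, every list gene with a listed window, every gene with a listed window within 500 kb, and the 5 genes closest to Bmi1 in the medians of the 2 differences. The genes in the closing observations fall outside this rule and were chosen after their values were seen. Exon, intron and UTR are not given, because no mm9 annotation was used here.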

Additional observations from a re-analysis of the deposited data

How the results depend on the processing

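Depth is unknown, and leaving out a library was not possible because the tables hold no value per library. No paired analysis was possible because the same values are missing. Under the opposite sign reading the Bmi1 medians become -45.6 points for IDH1mut minus IDH1wt, 35.7 points for R-2HG minus IDH1mut and -9.97 points for R-2HG minus IDH1wt by subtraction, and Kdm6b becomes -25.3 points. Over the Bmi1 windows that do not overlap the means were 47.8, -38.1 and 9.67 points, and joining overlapping windows left 1 region in place of 3 windows in each comparison that listed them. At 40 points or more Bmi1 kept 3 windows for IDH1mut against IDH1wt and 1 for R-2HG against IDH1mut. Kdm6b had 0 windows at 30 points or more and 0 at 40 or more, since its difference is below both. With q under 0.001 the counts of windows at Bmi1 and Kdm6b were as before. Polycomb pathway genes with a window within 10 kb of the start site numbered 2 for IDH1mut and 2 for R-2HG against IDH1wt and 1 for R-2HG against IDH1mut, and 0 in each comparison from -2000 to 500 bp. In the same order they numbered 4, 3 and 2 at 30 points or more, and with q under 0.001 they numbered 4, 4 and 2. Without Bmi1 and Kdm6b, an alternative chosen after seeing the data, R-2HG against IDH1mut had 1.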

Other observations

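Further chromatin genes outside the lists, named after their values were seen, also had listed windows. L3mbtl1, which encodes an MBT-domain reader of methylated histones, was 34.3 points higher in IDH1mut and 28.3 points higher in R-2HG than in IDH1wt in 2 windows at 4802 and 5052 bp downstream of its start in the authors' deposited table. Its relative L3mbtl4 had a window at 116 bp with -25.2 points for R-2HG minus IDH1wt in the authors' deposited table. Nsd1, a methyltransferase gene for lysine 36 of histone H3, had a window at 1110 bp that was 25.3 points higher in R-2HG than in IDH1wt in the authors' deposited table. Brd7, a subunit gene of a SWI/SNF remodeller, was up to 42.5 points higher in IDH1mut and up to 30.6 points higher in R-2HG than in IDH1wt at -14662 bp in the authors' deposited table. Smarcb1, a core subunit gene of the same family, had the Bmi1 arrangement with the signs exchanged. It differed by -26.2 points for IDH1mut minus IDH1wt and by 25.4 points for R-2HG minus IDH1mut in the authors' deposited table, and subtraction left R-2HG minus IDH1wt at -0.767 points. Arid1b, a further subunit gene, had windows at 156679 and 156929 bp where R-2HG minus IDH1mut was -31.4 points in the authors' deposited table. Usp7, a deubiquitinase gene, had a window at -25067 bp where R-2HG minus IDH1wt was -29.9 points in the authors' deposited table.

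On chromosome 11, looked at after the values were seen, the genes Enpp7, Cbx2 and Cbx8 follow each other among protein-coding genes in RefSeq. Besides the Cbx8 windows, 2 windows nearest to Enpp7, ending 63500 bp before them, were 25.2 points higher in R-2HG than in IDH1wt in the authors' deposited table. They were not listed for IDH1mut, and no window named Cbx2 as its nearest gene.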
